A study of Rattus norvegicus with 100 samples.

Results

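The genes described are 9 that serve protein folding in the endoplasmic reticulum (ER): Hspa5, Hsp90b1, Calr, Canx, Pdia3, Pdia4, Pdia6, Fkbp11 and Xbp1. They were chosen by name, with earlier results of these data known. Each was taken with every probe set assigned to it alone, which gave 12 of the 15923 probe sets on the array and 9 of the 9030 genes with a value. Canx had 3 probe sets, Pdia3 had 2 and each other gene had 1. The probe set with the highest mean stood for the gene, and for all 9 genes it had a value on all 100 arrays, so that none was lost to a filter.

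The samples came from immature female rats in a uterotrophic assay run to the OECD guideline, a test in which an estrogenic compound acts on the juvenile uterus. Ethinylestradiol (EE), a synthetic estrogen, was compared with animals that the labels name only as control. The EE uterus groups at 2, 4, 8, 24, 28, 48 and 72 h held 5 arrays each and so did the control uterus groups at those times. The EE pituitary groups at 4, 8, 24, 48 and 72 h held 3 arrays each, as did the control pituitary groups. The sources used here do not give strain, age, dose, route, dosing schedule or the treatment of controls. They also do not say that each array is a separate animal, so a p-value here reflects the spread among arrays, which may be technical. Values are linear intensities per probe set of RAE230A arrays, on which uterus arrays had medians of 94.6 to 108 and pituitary arrays of 103 to 110. The number of arrays limits the precision. The labelled tissues matched their markers: Acta2 and Myh11 of smooth muscle and Hoxa10 and Hoxa11 had values on all 70 uterus arrays, while Prl, Gh1 and Cga had values on all 30 pituitary arrays and on none of the uterus. Pomc, the corticotroph hormone precursor, was blank on 29 of 30 pituitary arrays.

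The ER is where secreted and membrane proteins are folded. Hspa5 (BiP) and Hsp90b1 (endoplasmin) are chaperones of the Hsp70 and Hsp90 classes, calreticulin (Calr) and calnexin (Canx) are lectins that hold N-glycosylated proteins, and Pdia3, Pdia4 and Pdia6 make and rearrange disulfide bonds. Fkbp11 is a peptidyl-prolyl isomerase of the ER, and Xbp1 is a transcription factor of the unfolded protein response, activated by splicing of its RNA, a step these values do not show. Estrogens make the immature uterus grow, with rising protein synthesis and secretion.

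Many ER chaperone genes carry the ER stress response element, a motif read by factors of the unfolded protein response. Windows from 250 bases before to 50 after the RefSeq start (build GRCr8) were available for 7 of the 9 genes, which excludes Pdia3 and Pdia6, and were searched on both strands for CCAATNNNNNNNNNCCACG. It was found in 5 of these 7 genes, against 22 of all 33469 windows (0.0657%). Because the motif was searched for as one that ER chaperone genes are known to carry, this count is a description and not a test. The 6 matches are shown because both chaperones, both lectins and Xbp1 hold one. Each is printed 5′ to 3′ on the strand of its gene with the motif in capitals, which reads CGTGG first where it lies on the opposite strand.
Hspa5, chr3:38452958-38453006, plus strand: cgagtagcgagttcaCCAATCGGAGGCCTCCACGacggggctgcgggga
Hsp90b1, chr7:23012436-23012484, minus strand: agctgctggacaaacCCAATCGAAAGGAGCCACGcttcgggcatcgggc
Hsp90b1, chr7:23012332-23012380, minus strand: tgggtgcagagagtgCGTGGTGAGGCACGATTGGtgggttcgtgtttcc
Calr, chr19:40213120-40213168, plus strand: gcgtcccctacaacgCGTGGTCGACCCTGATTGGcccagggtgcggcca
Canx, chr10:35158054-35158102, minus strand: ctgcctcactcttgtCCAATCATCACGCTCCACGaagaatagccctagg
Xbp1, chr14:84604543-84604591, plus strand: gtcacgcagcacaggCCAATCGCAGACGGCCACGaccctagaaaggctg

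Counted from the start on which each window is built, the motif began at -43 in Hspa5, at -65 in Xbp1, at -176 and -72 in Hsp90b1, at -232 in Calr and at -230 in Canx. With 1 mismatch in the 10 fixed bases allowed, Pdia4 also had a match, which began at -101, as did 1.41% of all windows. No such match lay in the window of Fkbp11. The window's start is the outer end of the gene's RefSeq span for 5 of the 7 genes, but lies 97 bases inside that span for Canx and 3523 bases inside it for Fkbp11. The 250 bases before the start of Hspa5, chr3:38452766-38453015 on the plus strand, are given whole because this gene had the largest EE response of the 9; they held 61.6% G and C.
Hspa5: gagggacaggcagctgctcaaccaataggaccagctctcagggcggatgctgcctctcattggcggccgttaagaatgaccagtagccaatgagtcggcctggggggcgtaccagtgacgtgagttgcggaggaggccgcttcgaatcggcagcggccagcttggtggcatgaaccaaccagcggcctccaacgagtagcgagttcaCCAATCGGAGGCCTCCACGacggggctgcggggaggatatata

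In uterus, EE raised ER folding genes from 4 h onward, and the order in which they moved differed between genes. At 2 h 0 of 9 passed the test, and 1, Xbp1, had an unadjusted p under 0.05. Hspa5, Hsp90b1 and Xbp1 led at 4 h, all 9 genes were higher at 8 h, and the isomerases Pdia4, Pdia6 and Fkbp11 had their largest differences at 24 h. The growth from 8 to 24 h passed for Pdia6 and Fkbp11 and not for Pdia4. At 72 h the EE and control arrays of Hspa5 overlapped, with a control mean above that at 24 h. At that time 6 genes stayed higher and Canx and Xbp1 were lower by their main probe sets. Differences are EE minus control on the scale log2(intensity + 30.4), given ± SE from the fit (n = 5 EE and 5 control arrays), and folds are ratios on that scale, which lowers the fold of dim genes. The words rose and fell are kept for an adjusted p under 0.05 by limma, with Benjamini-Hochberg adjustment over all genes tested. In tissue RNA, a change in RNA per cell and a change in the share of cells that carry it cannot be told apart.

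The share of all genes that passed is the background for each count. As the members were chosen with earlier results of these data known, setting a count beside that share is a description and not a test. At 2 h, 6.39% of all genes passed in either direction, 292 higher and 173 lower, a split that became 377 and 97 after median centring of the arrays and 378 and 115 after quantile normalization. Of the 9 members 6 rose at 4 h, where 23.6% of all genes rose, and 9 rose at 8 h, against 28.7% of all genes. At 24 h 7 rose and 1 fell, with 24.8% of all genes higher and 34.4% lower. At 28 h 8 rose and 1 fell, with 28.4% higher and 34.4% lower. The counts were 6 and 1 at 48 h (24.2% higher and 33% lower) and 6 and 2 at 72 h (23.4% higher and 36.8% lower). The median difference over the 9 genes was 0.22 at 4 h, 0.61 at 8 h and 0.82 at 24 h, while over all genes tested it lay between -0.08 and -0.04 at those times. After quantile normalization 3 rather than 6 members passed at 4 h and 5 rather than 8 passed at 72 h. By the same setting Pdia3 did not pass at 8 h (0.17, adjusted p = 0.0594). At 48 h Hsp90b1 (0.10), Calr (0.15) and Pdia3 (0.08) did not pass, while Xbp1 passed as lower (-0.26). The EE effect differed among the 7 times for 9 of 9 members by the F test, as it did for 81.6% of all genes.

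**Figure D1:**
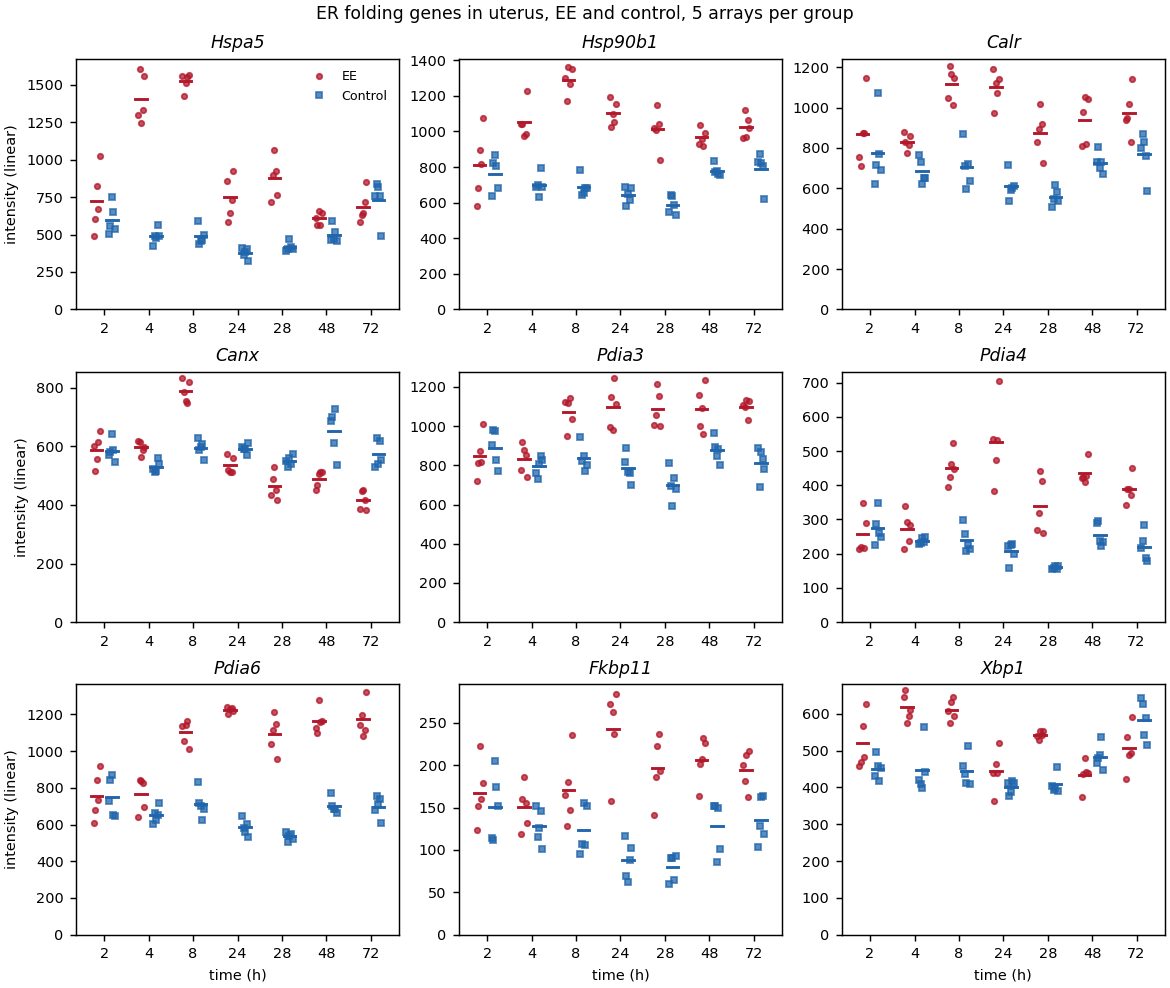
Linear intensity (y axis) of the 9 ER folding genes on each uterus array by time (x axis, h, not to scale), with EE arrays as red circles left of control arrays as blue squares and bars at the group means (n = 5 each). The EE and control arrays of Hspa5 lie apart from 4 to 28 h and overlap at 2, 48 and 72 h, while those of Pdia6 lie apart from 8 to 72 h.

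Hspa5 (chr3:38453016-38457475, GRCr8, as all gene positions here) binds unfolded chains as they enter the ER. On EE arrays its intensity at 4 h was 1301, 1608, 1243, 1329 and 1558, against 422.7, 489, 474.8, 564.4 and 488.9 on control arrays. At 8 h it was 1562, 1423, 1512, 1552 and 1569 with EE, against 587.7, 438.8, 455.8, 462.5 and 499 in controls. The groups did not overlap at either time, and the lowest EE array was more than 2-fold above the highest control array. The rise was 1.47 ± 0.12 at 4 h (2.77-fold, adjusted p = 6.26e-16) and 1.59 ± 0.12 at 8 h (3.01-fold, adjusted p = 9.68e-18). It was 0.91 ± 0.12 at 24 h and 1.01 ± 0.12 at 28 h.

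The Hspa5 difference was smaller at the last times. At 48 h the difference was 0.27 ± 0.12 (adjusted p = 0.0552), and this value passed after median centring (0.31, adjusted p = 0.0293), with only the 48 h arrays in the fit (adjusted p = 0.0093) and without control replicate 62 or EE replicate 68. At 72 h the EE arrays read 585.3, 627.6, 646.3, 720.4 and 848.7, against 760.7, 838.4, 818.6, 757 and 488.5 on control arrays. The groups overlapped, with control replicate 78 the lowest of all 10 arrays, and the difference was -0.08 ± 0.12 (95% interval -0.33 to 0.17). Without that array it was -0.21, which did not pass either. Control levels of Hspa5 were themselves not flat: they averaged 378.3 ± 34.51 at 24 h and 732.6 ± 141 at 72 h (SD, n = 5 each). The difference at 72 h is therefore taken against a higher control mean than that at 24 h.

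Hsp90b1 (chr7:22997962-23012293) completes the folding of a smaller set of client proteins. At 8 h its EE arrays read 1298, 1172, 1365, 1268 and 1353, against 786.2, 642.8, 657, 682.4 and 680.2 on control arrays. All EE arrays lay above all control arrays. The rise was 0.57 ± 0.09 at 4 h, 0.88 ± 0.09 at 8 h (1.84-fold, adjusted p = 5.08e-13) and 0.75 ± 0.09 at both 24 and 28 h. Unlike Hspa5 it was still higher at 72 h, by 0.37 ± 0.09 (adjusted p = 3.30e-04), although this and the value at 48 h (0.30 ± 0.09) did not pass after quantile normalization (0.11 and 0.10).

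Calr (chr19:40213367-40218262), the soluble lectin that also stores calcium in the ER, had its largest difference at 24 h. EE arrays then read 1193, 972, 1122, 1073 and 1142, against 717.7, 538.1, 593.1, 602.4 and 611.7 in controls. The groups did not overlap and the rise was 0.82 ± 0.11 (1.76-fold, adjusted p = 9.85e-10). It was 0.27 ± 0.11 at 4 h, a call lost without control replicate 16 (adjusted p = 0.0606) and after quantile normalization, 0.65 ± 0.11 at 8 h and 0.33 ± 0.11 at 72 h. The values at 48 and 72 h also did not pass after quantile normalization (0.15 and 0.08).

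Canx (chr10:35124941-35157954), the membrane-bound lectin, gave different answers on its 3 probe sets. On the brightest, 1371686_at, EE arrays at 8 h read 832.6, 787.1, 754.9, 748 and 818.5, against 627.1, 588.5, 598.2, 609.3 and 555.1 in controls. At 72 h they read 384.9, 447.6, 449.8, 417.4 and 383.7, against 531.3, 630.3, 538.2, 618.1 and 553.5 in controls. All EE arrays were thus above all control arrays at 8 h and below all of them at 72 h. The difference was 0.39 ± 0.06 at 8 h (1.31-fold, adjusted p = 1.22e-07), -0.24 ± 0.06 at 28 h, -0.39 ± 0.06 at 48 h and -0.44 ± 0.06 at 72 h (1.35-fold lower, adjusted p = 9.99e-09). The value at 24 h, -0.14 ± 0.06, lost its call without any 1 of control replicates 37, 38, 39 and 42 or EE replicates 44, 45 and 46 (adjusted p up to 0.0945) and after median centring (-0.08, adjusted p = 0.289). At 4 h Canx rose by 0.16 ± 0.06 (adjusted p = 0.0205), which did not pass after quantile normalization (0.08) or on 1371687_at (0.32, adjusted p = 0.0639).

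The other Canx probe sets stayed higher. At 72 h 1371687_at read 310.3, 277.9, 319.5, 339.5 and 372.8 with EE, against 265.3, 201.9, 201.9, 272.8 and 124.9 in controls. On 1388442_at the EE arrays read 410.3, 469.4, 463.3, 442.9 and 400.1, against 397.9, 379.2, 385.7, 389.9 and 340. Both probe sets had all EE arrays above all control arrays at that time. Over all single-gene probe sets tested, 1371687_at rose by 0.93 ± 0.15 at 8 h, 0.58 ± 0.15 at 24 h and 0.57 ± 0.15 at 72 h (adjusted p = 7.05e-04). The probe set 1388442_at rose by 0.64 ± 0.09 at 8 h, 0.42 ± 0.09 at 24 h and 0.19 ± 0.09 at 72 h (adjusted p = 0.0464). All 3 sets thus rose at 8 h, and from 24 h on the brightest took the opposite sign to the other two.

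Within each array, the log2 value of 1388442_at minus that of 1371686_at averaged 0.07 ± 0.02 with EE at 72 h, against -0.56 ± 0.13 in controls (SD, n = 5 each). At 2 h the same measure averaged -0.49 ± 0.09 with EE, against -0.55 ± 0.06 in controls. The groups overlapped at 2, 4 and 8 h and did not from 24 h on, which shows unequal change of the 2 probe sets and not which of them follows the gene. Signs of RNA quality also differed in mean between EE and control uterus arrays. The 3′ minus 5′ log2 value of the Actb control probe sets averaged 0.225 ± 0.0941 with EE at 8 h against 0.510 ± 0.114 in controls, 0.197 ± 0.0735 at 28 h against 0.441 ± 0.0782, and 0.248 ± 0.133 at 48 h against 0.615 ± 0.180 (n = 5 each). That of Gapdh averaged 0.341 ± 0.0613 with EE at 48 h against 0.550 ± 0.112 in controls, and blank cells made up 38.2% ± 0.974 with EE at 8 h against 34.5% ± 0.836. The array median averaged 96.8 ± 1.26 with EE at 24 h against 102 ± 1.91 in controls, and 98.4 ± 2.30 at 72 h against 103 ± 1.07. Each of these had an exact permutation p of 0.00794, the smallest that 5 against 5 arrays allow, and an adjusted p of 0.0544 over 48 tests. At 72 h the unadjusted exact p was 0.0317 for Actb and 0.0397 for Gapdh (adjusted p = 0.147). Their part in the changes of Canx and of the other members at these times was not tested.

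**Figure D2:**
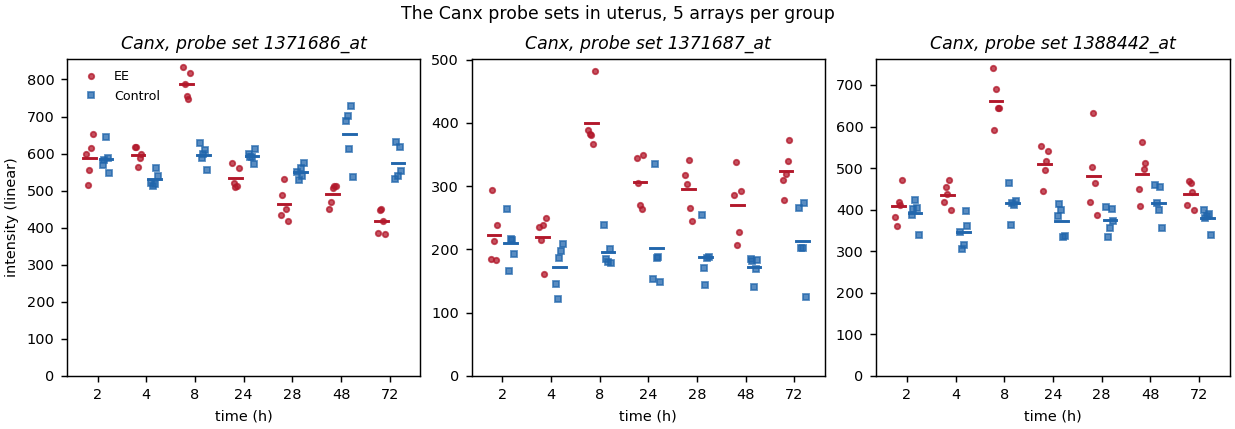
Linear intensity (y axis) of the 3 Canx probe sets on each uterus array by time (x axis, h, not to scale), with EE arrays as red circles left of control arrays as blue squares and bars at the group means (n = 5 each). EE arrays lie above control arrays on all 3 at 8 h and at 72 h they lie below on 1371686_at and above on the other two.

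Pdia3 (chr3:128841781-128865733) forms disulfide bonds in glycoproteins held by the lectins. At 28 h EE arrays read 1005, 1058, 1215, 1153 and 1000, against 809.8, 695.5, 591.5, 734.2 and 678.2 in controls. The groups did not overlap. It did not pass at 4 h (0.06 ± 0.08, adjusted p = 0.518) and rose by 0.35 ± 0.08 at 8 h, 0.46 ± 0.08 at 24 h, 0.61 ± 0.08 at 28 h (1.53-fold, adjusted p = 1.07e-09) and 0.43 ± 0.08 at 72 h. After quantile normalization the values at 8, 48 and 72 h did not pass. Its second probe set, 1392920_at, was dim and blank on 5 arrays, and did not pass at any uterus time (between -0.10 and 0.14).

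Pdia4 (chr4:78134144-78153191) and Pdia6 (chr6:45791704-45808947) are further disulfide isomerases, and both had their largest differences at 24 h. Pdia4 then read 535.4, 382.4, 472.4, 532.7 and 704.4 with EE, against 223.5, 158.8, 225.3, 227.6 and 197.9 in controls. Pdia6 read 1242, 1199, 1228, 1232 and 1217 with EE, against 648.8, 582, 561.6, 600.2 and 533.9. No array of one group reached the range of the other in either gene, and the 5 EE arrays of Pdia6 were close together. The rise at 24 h was 1.21 ± 0.12 for Pdia4 (2.32-fold, adjusted p = 9.23e-13) and 1.03 ± 0.08 for Pdia6 (2.04-fold, adjusted p = 3.12e-17).

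At 4 h Pdia4 did not pass (0.16 ± 0.13), and the small rise of Pdia6 (0.22 ± 0.08) was lost without EE replicate 20 or 21 (adjusted p = 0.0536 and 0.0518) and after quantile normalization. Both genes were still well above control at the end of sampling. The differences at 72 h were 0.75 ± 0.12 for Pdia4 (1.68-fold) and 0.73 ± 0.08 for Pdia6 (1.65-fold).

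Fkbp11 (chr7:131750828-131757784), the prolyl isomerase, was dim in control uterus, and the offset therefore lowers its fold. EE arrays at 24 h read 271.6, 158.3, 262.3, 237.1 and 284.1, against 116.1, 69.58, 62.18, 88.48 and 102.5 in controls. Even EE replicate 44, the lowest, was above every control array. The rise was 1.21 ± 0.15 at 24 h (2.31-fold, adjusted p = 4.79e-10), 1.04 ± 0.15 at 28 h and 0.45 ± 0.15 at 72 h. At 8 h it was 0.39 ± 0.15 (adjusted p = 0.0212), a call lost without control replicate 25, 27 or 29 or EE replicate 35 (adjusted p between 0.0504 and 0.11).

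Xbp1 (chr14:84604623-84609707), the transcription factor, rose early and was lower at the end. At 4 h EE arrays read 644.5, 664.8, 575.3, 594.1 and 609.6, against 421, 410.2, 399.7, 563.7 and 443.2 in controls. At 72 h they read 422.8, 537.3, 487.8, 494.8 and 591.8, against 643.9, 626.4, 542.6, 588.6 and 515.3. The groups were apart at 4 h, with control replicate 17 the closest to the EE range, and overlapped at 72 h. The difference was 0.45 ± 0.08 at 4 h (1.36-fold, adjusted p = 1.69e-06) and 0.43 ± 0.08 at 8 h. It was 0.13 ± 0.08 at 24 h (adjusted p = 0.136), which passed without EE replicate 44 (adjusted p = 0.0276) and after median centring (adjusted p = 0.0412), and 0.39 ± 0.08 at 28 h.

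The late Xbp1 values were small. At 48 h the difference was -0.14 ± 0.08 (adjusted p = 0.111), which passed after quantile normalization (-0.26, adjusted p = 0.00539). At 72 h the difference was -0.20 ± 0.08 (adjusted p = 0.0273). That call was lost without control replicate 73 or 75 or EE replicate 79 or 82, after median centring (adjusted p = 0.115), and with only the 72 h arrays in the fit (adjusted p = 0.0776).

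**Figure D3:**
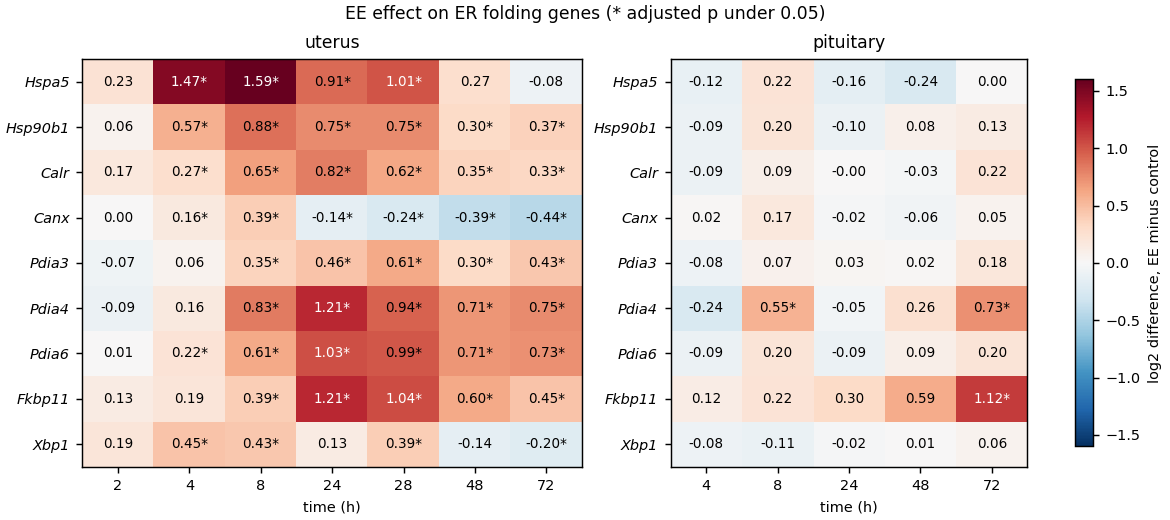
Log2 difference, EE minus control, of the 9 ER folding genes (rows) by time in h (columns), in uterus on the left (n = 5 EE and 5 control arrays) and pituitary on the right (n = 3 and 3). Stars mark an adjusted p under 0.05. Hspa5 reaches 1.59 at 8 h and Pdia4 and Fkbp11 reach 1.21 at 24 h in uterus, and in pituitary Pdia4 at 8 and 72 h and Fkbp11 at 72 h carry a star.

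Differences between neighbouring times were tested directly. From 2 to 4 h the EE effect grew in Hspa5 by 1.24 ± 0.18 (adjusted p = 9.08e-08) and in Hsp90b1 by 0.51 ± 0.13 (adjusted p = 0.00149), 2 of 9 members, where 14.7% of all genes grew. Without EE replicate 12 of the 2 h group, 4 members passed. From 4 to 8 h it grew in Pdia4 by 0.67 ± 0.18 and in Pdia6 by 0.39 ± 0.11, against 9.22% of all genes. That count of 2 became 1 after quantile normalization, 5 without control replicate 25 of the 8 h group and 6 with only the arrays compared. Over all single-gene probe sets tested, this step passed for Canx on 1371687_at (0.61 ± 0.21, adjusted p = 0.032). It did not pass on 1371686_at (0.23, adjusted p = 0.0581) or 1388442_at (0.32, adjusted p = 0.0507). The split of all genes in this step was 620 higher and 691 lower, and 374 and 825 after quantile normalization or 479 and 823 after median centring.

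From 8 to 24 h members changed in both directions, with counts near the shares of all genes. The EE effect grew in Fkbp11 by 0.82 ± 0.21 and in Pdia6 by 0.41 ± 0.11, 2 of 9 where 23.6% of all genes grew. It fell in Hspa5 (-0.67 ± 0.18), Canx (-0.53 ± 0.09) and Xbp1 (-0.30 ± 0.11), 3 of 9 where 22.6% of all genes fell. The Canx value is that of its brightest probe set. This step did not pass on 1371687_at (-0.35, adjusted p = 0.18) or 1388442_at (-0.21, adjusted p = 0.147). Between 24 and 28 h 0 of 9 members passed, against 8.26% of all genes in either direction, and Xbp1 (0.25 ± 0.11) was the 1 with an unadjusted p under 0.05.

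From 28 to 48 h the effect dropped in Hspa5 (-0.74 ± 0.18), Xbp1 (-0.53 ± 0.11), Hsp90b1 (-0.45 ± 0.13) and Pdia3 (-0.31 ± 0.11), 4 of 9 where 13.9% of all genes dropped. Between 48 and 72 h 0 of 9 passed, against 0.505% of all genes, with 1, Hspa5 (-0.35 ± 0.18), at an unadjusted p under 0.05. Hspa5 and Pdia6, a pair picked after their values were seen, show the change of order within single arrays. The log2 value of Hspa5 minus that of Pdia6 averaged 0.85 ± 0.24 with EE at 4 h, against -0.40 ± 0.13 in controls (SD, n = 5 each). At 72 h it averaged -0.76 ± 0.15 with EE, against 0.05 ± 0.20 in controls. EE and control groups did not overlap at either of these times, and lay in opposite orders. At 24 h it averaged -0.71 ± 0.26 with EE, against -0.59 ± 0.07 in controls, and the groups overlapped. From 24 to 72 h the control mean thus moved more than the EE mean. The measure shows unequal change of the 2 probe sets, not which gene was the more abundant.

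In pituitary few of the 9 genes passed the test. By limma 0 of 9 passed at 4 h (1.49% of all genes in either direction), at 24 h (0.0875%) and at 48 h (0.321%). At an unadjusted p under 0.05 these counts were 1 at 4 h (Pdia4), 0 at 24 h and 3 at 48 h (Hspa5, Pdia4 and Fkbp11). Pdia4 at 4 h and Hspa5 at 48 h were lower with EE, while Pdia4 and Fkbp11 at 48 h were higher. Hspa5 at 48 h read 1788, 1779 and 1732 with EE, against 2120, 2215 and 1955 in controls. Pdia4 was the 1 member that rose at 8 h, where 1.73% of all genes rose, and Pdia4 and Fkbp11 rose at 72 h, against 1.76% of all genes. Hspa5, which had the largest uterine response, differed by 0.22 ± 0.10 at 8 h (adjusted p = 0.224) and 0.00 ± 0.10 at 72 h (95% interval -0.21 to 0.21). A value that did not pass with 3 arrays a group does not show equal levels.

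Pdia4 in pituitary read 491.8, 511.7 and 493.4 with EE at 8 h, against 383.3, 297.7 and 318.7 in controls. At 72 h it read 627.1, 585 and 557.6 with EE, against 354.4, 352.4 and 325.3. The groups were apart at both times. The rise was 0.55 ± 0.11 at 8 h (1.46-fold, adjusted p = 0.00777) and 0.73 ± 0.11 at 72 h (1.66-fold, adjusted p = 3.20e-04). The 8 h call was lost without control replicate 28 (0.48, adjusted p = 0.056) and with only the arrays of that time in the fit (adjusted p = 0.124), in which setting 9 genes of the whole array passed in place of 238. The split of those 238 genes, 116 higher and 122 lower, was 84 and 136 after quantile normalization.

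Fkbp11 at 72 h read 254.6, 320.2 and 351.4 with EE in pituitary, against 105.3, 138.1 and 130.6 in controls. Every EE array was above every control array. The rise was 1.12 ± 0.15 (2.18-fold, adjusted p = 4.68e-05). At 48 h the EE arrays read 198.3, 278.4 and 226, against 154.8, 155.3 and 123.7 in controls, apart as well, with a difference of 0.59 ± 0.15 that did not pass (adjusted p = 0.0816). The EE effect differed among the 5 times for these 2 members, Pdia4 and Fkbp11, against 1.1% of all genes. The adjusted p was 0.00403 for Pdia4 and 0.0441 for Fkbp11, and for 21 of the 30 arrays, each left out in turn, 1 gene passed in place of 2.

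**Figure D4:**
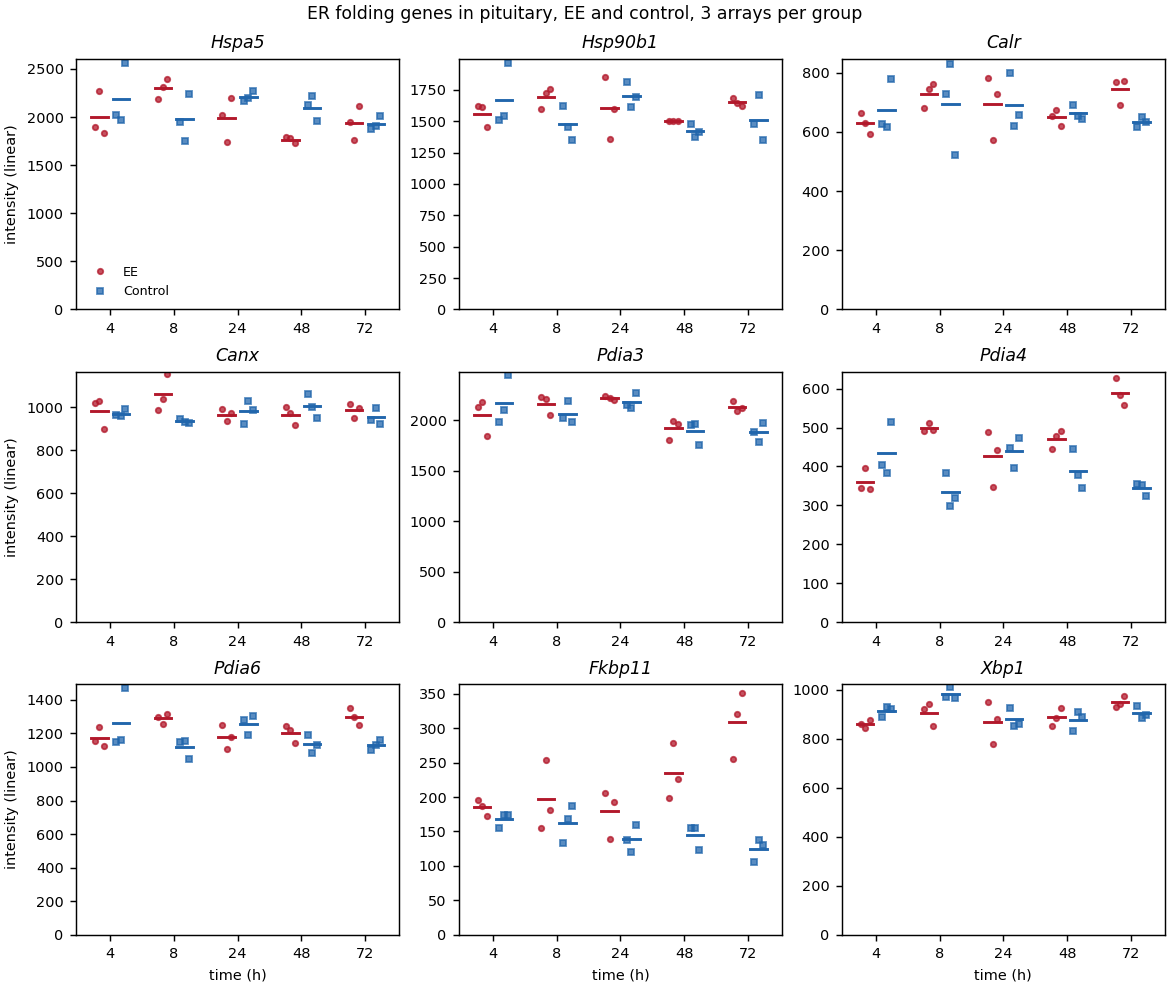
Linear intensity (y axis) of the 9 ER folding genes on each pituitary array by time (x axis, h, not to scale), with EE arrays as red circles left of control arrays as blue squares and bars at the group means (n = 3 each). EE and control arrays of Fkbp11 and Pdia4 lie apart at 72 h, while those of Hspa5 overlap at that time.

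The EE effects of the 2 tissues were compared at the 5 shared times. At 4 h that of uterus exceeded that of pituitary in 4 of 9 members, Hspa5, Hsp90b1, Xbp1 and Pdia6 (15.2% of all genes), and at 8 h in 6, those 4 with Calr and Pdia3 (22.5%), although the Pdia3 value (0.28) did not pass when all single-gene probe sets were tested (adjusted p = 0.0508). At 24 h it was larger in 7 members, against 17.8% of all genes, with Pdia4 at 1.26 ± 0.19, Pdia6 at 1.12 ± 0.12 and Hspa5 at 1.07 ± 0.19 and without Canx and Xbp1. On the dim second probe set of Pdia3 the difference was 0.08 at both 8 and 24 h and did not pass. At 48 h the uterine effect was the larger in Hspa5 and Pdia6 (15%) and the lower in Canx (21.4%), a count of 3 that became 5 without uterus control replicate 61, uterus EE replicate 71 or pituitary control replicate 66. At 72 h it was larger in Pdia6 (14.5%) and lower in Canx and Fkbp11 (24.1%). Fkbp11 was thus the member whose EE effect was larger in uterus at 24 h (0.91 ± 0.24, adjusted p = 0.00127) and larger in pituitary at 72 h (-0.67 ± 0.24, adjusted p = 0.018). The Canx values are those of its brightest probe set, and its other probe sets differed from them. At 8 h the uterine effect was the larger by 0.68 ± 0.24 on 1371687_at (adjusted p = 0.0132) and by 0.51 ± 0.13 on 1388442_at (adjusted p = 9.85e-04). At 24 h it was the larger by 0.65 ± 0.24 on 1371687_at (adjusted p = 0.0215) and by 0.43 ± 0.13 on 1388442_at (adjusted p = 0.00646). On these probe sets the difference was 0.36 and 0.09 at 48 h and 0.46 and 0.08 at 72 h, and none of these 4 values passed. With the numbers in the array titles as a replicate block, 5 members passed at 4 h in place of 4 and 2 at 48 h in place of 3.

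Without EE, 8 of 9 members had lower intensities in uterus than in pituitary over the 5 shared times, as did 47.6% of all genes. Hspa5 was 3.94-fold lower in control uterus (-1.98 ± 0.06), Pdia3 2.43-fold lower (-1.28 ± 0.04) and Hsp90b1 2.12-fold lower (-1.08 ± 0.05). Calr was the exception, with 0.06 ± 0.05 (95% interval -0.05 to 0.16). The second, dim probe set of Pdia3, 1392920_at, gave a smaller difference (-0.38 ± 0.04). The 3′ minus 5′ log2 values of the control probe sets also lay apart between tissues. In control arrays at 8 h Actb averaged 0.51 ± 0.114 in uterus and 1.54 ± 0.0319 in pituitary. Gapdh averaged 0.387 ± 0.0754 and -0.13 ± 0.0594 (SD). Their part in the tissue differences was not tested. At 8 h the EE uterus arrays of Hspa5, between 1423 and 1569, were still below the control pituitary arrays of that time, 1952, 1749 and 2242.

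Control levels of all 9 members differed among the 7 uterus times, against 32.6% of all genes, and those of 0 of 9 differed among the pituitary times, against 1.61% of all genes (unadjusted p under 0.05 for 2, Pdia3 and Pdia4). Control uterus means were lowest at 24 or 28 h for 8 members and at 4 h for Canx. Pdia6 controls, for one, averaged 747.2 ± 103.5 at 2 h, 534.8 ± 21.1 at 28 h and 697.1 ± 58.83 at 72 h (SD, n = 5 each). Other than for Canx, the EE difference at 24 or 28 h is therefore taken against the lowest control mean of the uterus times.

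Across the 70 uterus arrays, which share treatments, times and normalization, the correlations are given as a description. Pearson's r was 0.91 for Pdia4 with Pdia6 and for Pdia3 with Pdia6, 0.89 for Hsp90b1 with Calr and 0.84 for Hspa5 with Hsp90b1. Hspa5 with Xbp1 had 0.81 and Hspa5 with Pdia6 had 0.56. Canx, by its brightest probe set, lay between -0.24 and 0.28 with every other member. Within groups, after subtracting group means, r was 0.75 for Hspa5 with Hsp90b1 and 0.59 for Pdia4 with Pdia6. By the same measure Canx lay between 0.16 (with Pdia3) and 0.47 (with Calr).

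Among 6323 genes with values on at least 65 uterus arrays, those most like Hspa5 were Stip1 (r = 0.942), Odc1 (0.940), Hspd1 (0.940), Manf (0.938) and Srm (0.933). Stip1 is a co-chaperone of the cytosol, Hspd1 the chaperonin of mitochondria, Manf an ER protein, and Odc1 and Srm enzymes of polyamine synthesis. Most like Xbp1 were Hsph1 (0.802), a chaperone of the cytosol, Dph3 (0.796), Timm10 (0.791), Mrps18b (0.790) and Ciapin1 (0.786). Most like the brightest Canx probe set were Zranb2 (0.866), Ubqln1 (0.802), Zfp180 (0.796), Kdr (0.794) and Mettl14 (0.772). Odc1 differed by 2.38 at 8 h and 0.13 at 72 h, beside 1.59 and -0.08 for Hspa5, while Kdr, a receptor of vascular endothelial growth factor, differed by 0.38 and -0.99, beside 0.39 and -0.44 for Canx.

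Other genes of the ER were read from lists of their roles, none of which holds a member. These lists were also chosen with earlier results of these data known, and their counts are a description. The genes named are among those with the smallest adjusted p of their list. The counts are read against the shares of all genes, of which 23.6% rose and 34.5% fell at 4 h, 28.7% and 35.5% at 8 h, 24.8% and 34.4% at 24 h and 23.4% and 36.8% at 72 h. Of the chaperones and cofactors of the Hsp70 system, 7 of 14 measured rose and 2 fell at 8 h, and 10 of 15 rose and 1 fell at 24 h. Creld2 (1.94 ± 0.13), Manf (1.50 ± 0.10) and the Hspa5 co-chaperone Dnajb11 (1.07 ± 0.08) were among the 7 at 8 h, and Sdf2l1 (1.52 ± 0.13) was among the 10 at 24 h. Of the disulfide oxidoreductases 10 of 14 rose and 2 fell at 24 h. Erp29 rose by 1.02 ± 0.07 and P4hb by 0.61 ± 0.06 at that time, while the peroxiredoxin Prdx4 fell at 8 h (-0.63 ± 0.09).

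Of the isomerases and collagen-folding genes, 5 of 14 rose and 3 fell at 8 h, against 28.7% and 35.5% of all genes, with Fkbp9 at -1.24 ± 0.08 and Ppic at -0.68 ± 0.08, and at 24 h 11 rose and 1 fell, with the prolyl hydroxylase P3h1 at 1.01 ± 0.10 and Fkbp2 at 0.85 ± 0.08. The list of N-glycan processing and the calnexin cycle had 5 of 7 higher and 1 lower at 8 h, among them the cargo receptor genes Mcfd2 (0.85 ± 0.09) and Lman1 (0.69 ± 0.09). Genes of calcium handling had 3 of 11 higher and 5 lower at 8 h and 7 of 11 higher and 4 lower at 72 h, so that the risers at 8 h and the fallers at 72 h were near the shares of all genes. The ER calcium pump Atp2a2 rose by 0.62 ± 0.07 at 8 h and the calcium sensor Stim1 fell (-0.82 ± 0.08).

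Translocon and glycosylation genes, which bring new chains into the ER and attach glycans, had 21 of 26 higher and 1 lower at 8 h and 20 higher and 1 lower at 24 h. Sec61a1, the channel subunit, rose by 1.12 ± 0.09 at 8 h and Ostc, of the oligosaccharyl transferase, by 1.25 ± 0.09 at 24 h. Transport genes between ER and Golgi had 23 of 26 higher and 0 lower at 24 h, among them the coat gene Sec13 (1.46 ± 0.10). The median difference at 24 h was 0.52 for the first list and 0.41 for the second, against -0.06 for all genes tested. In pituitary at 72 h, 10 of 26 translocon and glycosylation genes rose and 0 fell, with Ssr2 at 0.70 ± 0.08 and Ssr4 at 0.63 ± 0.08. Their median was 0.26 against -0.01 for all genes, beside 2 of 25 transport genes and 4 of 15 chaperones and cofactors that rose.

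Genes of ER-associated degradation had 9 of 15 higher and 2 lower at 4 h, with Vcp, the ATPase that extracts misfolded proteins, at 0.60 ± 0.05 and Erlec1 at -0.67 ± 0.07. Of the genes that sense and signal the unfolded protein response, 5 of 15 rose and 0 fell at 2 h, where 4.01% of all genes rose. At 4 h 8 rose and 3 fell, at 8 h 8 rose and 1 fell, and at 24 h 5 rose and 5 fell. Atf4, a transcription factor translated when eIF2 is phosphorylated, rose by 1.23 ± 0.06 at 4 h and Eif2s1, a subunit of eIF2, by 1.12 ± 0.07. Ddit3, a factor linked to stress-induced cell death, was lower at 24 h (-0.71 ± 0.11), as was Mbtps1, the protease that cleaves Atf6 (-0.51 ± 0.06).

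**Figure D5:**
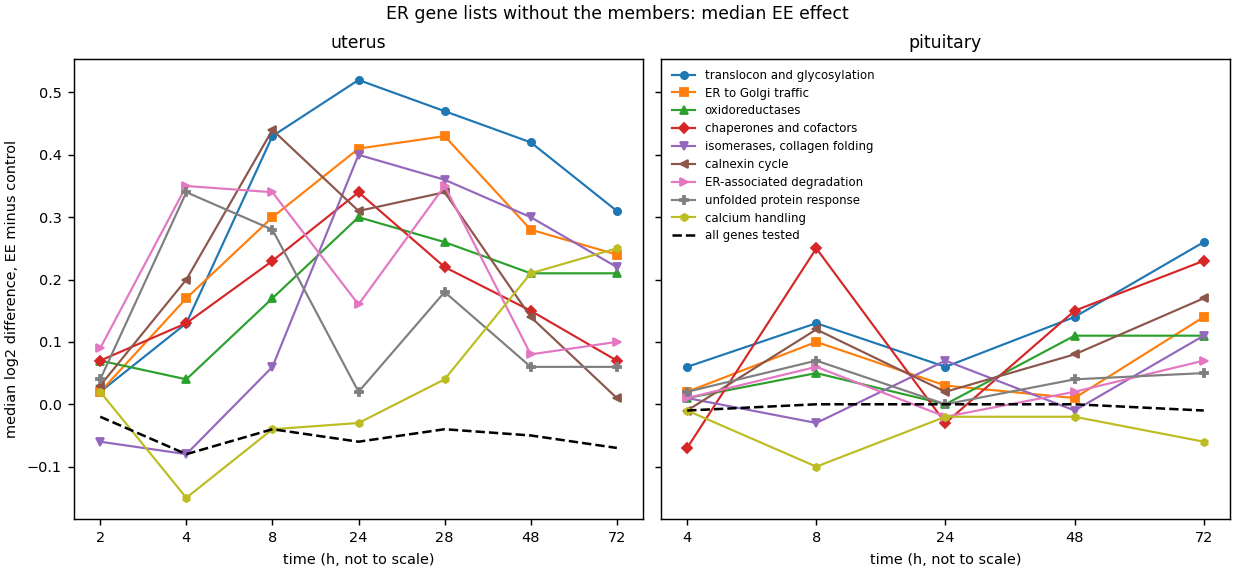
Median log2 difference, EE minus control (y axis), of 9 lists of ER genes without the members by time (x axis, h, not to scale) in uterus (left) and pituitary (right), with all genes tested as a dashed line. Translocon and glycosylation genes reach 0.52 at 24 h in uterus and 0.26 at 72 h in pituitary, and the unfolded protein response list reaches 0.34 at 4 h in uterus.

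The promoter motif was also looked up outside the members. Of the 5848 genes with a window that were tested at 8 h in uterus, 6 others held it, and all 6 are named here because of the motif. Creld2 (1.94), Dnajc3 (0.87) and Hnrnpa3 (0.42) rose, Pan2 (-0.44) and Ankmy2 (-0.56) fell, and Ppm1l (0.01) did not pass. Of all genes with a window 29.5% rose at that time.

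Markers of cell types were read in the same way, against 28.7% of all genes higher at 8 h, 24.8% at 24 h and 23.4% at 72 h. Of 10 epithelial markers 5 rose and 2 fell at 8 h, 6 rose and 2 fell at 24 h, and 8 rose with 0 lower at 72 h. Their summed intensity ranged over 3483 to 5072 with EE at 24 h, against 1941 to 2887 in controls, and over 5814 to 7932 with EE at 72 h, against 1727 to 2244. Macrophage markers rose in 7 of 7 measured at 72 h, with sums of 3920 to 6461 with EE against 1168 to 1609 in controls, and in 1 of 7 at 8 h. Of 10 smooth muscle markers 1 rose and 4 fell at 8 h, and 6 rose and 1 fell at 72 h, and the fallers at 8 h were near the 35.5% of all genes that fell. Blood markers fell in 2 of 2 measured at 48 and 72 h, where 33% and 36.8% of all genes fell. Of the plasma and B cell markers, Prdm1 was the 1 measured, and it fell from 4 h on (-0.83 at 8 h), while Cd79b was blank on 69 of 70 uterus arrays. In pituitary at 72 h, 0 of 5 lactotroph and somatotroph markers passed, and their sums were 13570 to 14520 with EE against 12940 to 13400 in controls. At 8 h 2 of these 5, Ghrhr (-0.76 ± 0.14) and Pou1f1 (-0.59 ± 0.13), fell, against 1.82% of all genes. Of 4 gonadotroph markers 1, Gnrhr (-1.57 ± 0.17), fell at 72 h, against 0.963% of all genes, with sums of 7741 to 8838 with EE against 10240 to 10370 in controls. Of 2 thyrotroph markers measured, Trhr rose at 8 h (0.72 ± 0.15) and 72 h (0.96 ± 0.15), the times at which Pdia4 rose, and Tshb did not pass (0.21 and 0.01). Thyrotroph sums were 3556 to 4482 with EE at 8 h, against 2918 to 3475 in controls, and 3391 to 3739 with EE at 72 h, against 3122 to 3683. Of 3 blood markers 1, Slc4a1 (-0.72 ± 0.18), fell at 72 h, with sums of 5003 to 5770 with EE against 6516 to 7311 in controls. The part of any of these cell types in the changes of the 9 genes was not tested.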

How the data were processed

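The deposited table holds linear intensities per probe set, with 37.2% of cells blank. How the authors summarised and scaled these intensities, and why cells are blank, is not given in the sources used here. Per the labels' protocols, 5 µg of total RNA was processed for each RAE230A array. Of 15923 probe sets, 12783 had 1 gene symbol, 312 several and 2771 none, and 57 were controls. The probe set with the highest mean, blanks counted as 0, stood for its gene. Values were taken as log2(intensity + 30.4) and fitted with limma 3.58.1 in R 4.3.3, separately by tissue and jointly for tissue comparisons, with blanks left out and genes kept with at least 3 of 5 values (uterus) or 2 of 3 (pituitary) in each group. P-values were Benjamini-Hochberg adjusted over all genes tested. The fit was tested on simulated data. Summaries used Python 3.11.15 with numpy 2.4.6, pandas 2.3.3, scipy 1.17.1 and matplotlib 3.10.9. The members and the gene lists were chosen with earlier results of these data known. All members could be named, with up to 3 genes per list and comparison by smallest adjusted p, and the 5 genes most correlated with Hspa5, Xbp1 and Canx. Promoters are RefSeq sequences of GRCr8. Alternatives were other offsets, median centring, quantile normalization, a filter on dim genes, only the groups compared, other probe sets, a replicate block and leaving out each array.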

Additional observations from a re-analysis of the deposited data

Results flagged for a closer look

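In 8 of 126 groups 1 array lay far from the others by Dixon's test at the 95% level, which chance does in about 1 in 20 groups. For Hsp90b1 these were EE replicate 24 at 4 h (1227), and control replicates 25 at 8 h (786.2), 61 at 48 h (832.9) and 78 at 72 h (620.2). For Hspa5 it was control replicate 78 at 72 h (488.5), the same array. For Pdia4 it was EE replicate 72 at 48 h (492.1), and for Xbp1 control replicates 17 at 4 h (563.7) and 52 at 28 h (454.3).

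The EE effect differed among the uterus times for all 9 genes. The F values were 26.89 for Hspa5, 10.33 for Hsp90b1, 5.03 for Calr, 23.62 for Canx, 8.80 for Pdia3, 13.19 for Pdia4, 22.28 for Pdia6, 7.34 for Fkbp11 and 11.58 for Xbp1. Among pituitary times F was 12.80 for Pdia4 and 7.33 for Fkbp11.

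Between neighbouring uterus times, the log2 EE effect differed from 2 to 4 h for Hspa5 (1.24) and Hsp90b1 (0.51), and from 4 to 8 h for Pdia4 (0.67) and Pdia6 (0.39). From 8 to 24 h it differed for Fkbp11 (0.82), Pdia6 (0.41), Hspa5 (-0.67), Canx (-0.53, on its brightest probe set only) and Xbp1 (-0.30). From 28 to 48 h it differed for Hspa5 (-0.74), Xbp1 (-0.53), Hsp90b1 (-0.45) and Pdia3 (-0.31).

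The EE effect in uterus minus that in pituitary differed at 4 h for Hspa5 (1.59), Hsp90b1 (0.66), Xbp1 (0.53) and Pdia6 (0.31). At 8 h it differed for Hspa5 (1.37), Hsp90b1 (0.68), Calr (0.56), Xbp1 (0.55), Pdia6 (0.41) and Pdia3 (0.28). At 24 h it differed for Pdia4 (1.26), Pdia6 (1.12), Hspa5 (1.07), Fkbp11 (0.91), Hsp90b1 (0.85), Calr (0.82) and Pdia3 (0.44). At 48 h it differed for Pdia6 (0.62), Hspa5 (0.52) and Canx (-0.33), and at 72 h for Pdia6 (0.53), Canx (-0.48) and Fkbp11 (-0.67). The Canx values are those of its brightest probe set only.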

How the results depend on the processing

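Quantile normalization left 3 of 9 genes past the threshold at 4 h and 5 at 72 h in uterus, and 1 in the step from 4 to 8 h. It also took the calls of Pdia3 at 8 h and of Hsp90b1, Calr and Pdia3 at 48 h, and added that of Xbp1 at 48 h. The pituitary test among times gave 1 gene with quantile normalization and with an offset of 1. With only the groups compared, the counts were 0 in pituitary at 8 h, 6 in the step from 4 to 8 h and 5 in the tissue difference at 48 h. Leaving out each array in turn gave 2 to 4 genes in the step from 2 to 4 h, 2 to 5 from 4 to 8 h, 2 to 5 in the tissue difference at 48 h, 1 to 2 in the pituitary test among times and 0 to 1 in pituitary at 8 h. The causes were not tested. Canx took the opposite sign on 1371687_at (0.58, 0.58, 0.56 and 0.57 at 24, 28, 48 and 72 h) and on 1388442_at (0.42, 0.32, 0.21 and 0.19), and Pdia3 on 1392920_at at 28 h (-0.03, which did not pass).

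Uterus and pituitary arrays of one treatment and time share title numbers, and the labels do not say whether a number marks an animal. Over 27 pairs the correlation of deviations lay between -0.06 and 0.16, with a median of 0.07 and 8 pairs over 0.1, which does not settle the pairing. With a replicate block for these numbers the tissue difference called 5, 6, 7, 2 and 3 members at 4, 8, 24, 48 and 72 h, and the control tissues 8. Over all genes the block gave 1321 calls at 48 h in place of 2277.

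Over all genes, the filter on dim genes gave 2664 calls in place of 4035 in uterus at 4 h, 2978 in place of 4469 at 8 h, 10 in place of 22 in pituitary at 48 h and 3487 in place of 5275 between control tissues. With only the groups compared, calls were 266 in place of 465 in uterus at 2 h, and in pituitary 26 in place of 102 at 4 h, 9 in place of 238 at 8 h and 2 in place of 6 at 24 h. Among the control pituitary times that setting gave 36 in place of 106. The step from 48 to 72 h had 34 calls, 22 with median centring and 9 with only the groups compared. Leaving out each array in turn gave 308 to 541 calls in uterus at 2 h and 18 to 60 in the step from 48 to 72 h. In pituitary it gave 54 to 105 calls at 4 h, 59 to 540 at 8 h, 0 to 5 at 24 h, 9 to 20 at 48 h and 87 to 121 at 72 h. The pituitary test among times had 70 calls and 40 to 116 without 1 array, and that among control times 24 to 101.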
